A study of Mus musculus with 16 samples.

Results

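The genes described here include enzymes that build the long sugar chains of the cell surface and matrix. Among them are the hyaluronan synthases and the enzymes that start, lengthen and sulfate heparan and chondroitin chains. Also included are the Slc35 carriers, several of which bring sugar donors into the Golgi apparatus. Members were taken by symbol: Slc35 followed by a letter, Chst followed by a number, Hs2st1, Hs3st and Hs6st genes, Ndst genes, Has1 to Has3, Ext1, Ext2, Extl genes, Xylt1 and Xylt2. The rule found 65 of the 19938 genes tested. They were 3 hyaluronan synthases, 2 xylosyltransferases, 5 exostosin-family enzymes (the Ext and Extl genes), 14 heparan sulfotransferases, 14 Chst sulfotransferases and 27 Slc35 carriers. Ndst1, which the rule also takes, was not analysed here.

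RNA came from N25/2, an immortalized line derived from embryonic mouse hypothalamus. Deprived cells were kept in medium without amino acids, and control cells in medium with them. Each state was measured at 1, 2, 3, 5 and 16 h on Affymetrix whole-transcript arrays, with 4 deprived and 4 control arrays at 5 h and 1 of each at the other times. The labels describe the culture before treatment alike for every sample, and all 16 arrays come from 1 cell line. Levels are deposited log2 values made with robust multi-array average (RMA), so a difference of 1 is a 2-fold change. Deprived and control cells are compared within a gene, not between genes. Where the level of a gene is set beside that of the median gene, this is a rough guide only.

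Glycosaminoglycans are chains of repeated sugar pairs. Hyaluronan is made at the plasma membrane and carries no sulfate, while heparan and chondroitin chains are built in the Golgi on core proteins from nucleotide sugars, then sulfated from the donor PAPS. Slc35 proteins are membrane carriers, several of which exchange nucleotide sugars or PAPS across the Golgi or endoplasmic reticulum membrane. In the brain, chondroitin and hyaluronan form much of the matrix around cells, and heparan chains hold growth factors at the cell surface.

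Array medians were 7.02 to 7.12 and no pair of arrays was identical. The amino acid response gene Trib3 averaged 2.52 higher in deprived than in control cells at 5 h, and Asns, Chac1 and Ddit3 also passed the test there. Of the marker lists, 5 of 10 neural, 2 of 5 hypothalamic, 4 of 5 mesenchymal, 1 of 5 astrocyte, 1 of 5 microglial, 0 of 3 oligodendrocyte and 0 of 4 endothelial genes had mean levels above the median gene (7.47). The neural stem cell genes Nes (10.34) and Sox2 (10.69) and the mesenchymal genes Vim (13.7) and Col1a1 (12.03) were above it. Of the neuronal genes, Stmn2 (12.25), Map2 (9.54) and Eno2 (9.32) were above it and Rbfox3 (6.47), Syp (6.77), Tubb3 (5.95), Nefl (5.22) and Nefm (4.91) below; of the hypothalamic genes, Otp (8.23) and Sim1 (7.98) were above and Npy (7.26), Nkx2-1 (6.69) and Pomc (6.55) below. At 5 h both arrays numbered 4 stood apart from those numbered 1 to 3 of their own group, so results that depend on them are given both ways. Whether the 4 samples of each group were grown apart is not stated; the p-values below therefore reflect only how far these samples scatter, and precision is limited by how few arrays there are. In RNA from whole cultures, fewer cells of a type and less RNA per cell cannot be told apart.

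Of the 65 genes, 7 passed limma's test at 5 h (Benjamini-Hochberg adjusted p below 0.05 over all genes), a share of 10.8%, where 4.11% of all genes tested passed. The hyaluronan synthase Has2, the sulfotransferases Chst12, Chst15 and Chst2 and the carrier Slc35e1 were lower in deprived cells, against 1.70% of all genes lower. The sulfotransferase Hs6st1 and the heparan enzyme Extl1 were higher, against 2.41% of all genes higher. By role, 1 of 3 hyaluronan synthases, 0 of 2 xylosyltransferases and 1 of 5 exostosin-family enzymes passed. So did 1 of 14 heparan sulfotransferases, 3 of 14 Chst enzymes and 1 of 27 carriers. All 7 lay among the 41 members above the median gene level. In a fit over such genes alone 7 of 41 members (17.1%) passed, where 9.60% of the genes in that fit did.

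Pairing the arrays by sample number raised the count to 19 members (29.2%), where 18.2% of all genes passed. Of these, 15 were lower (10% of all genes) and 4 higher (8.22% of all genes). Without both arrays numbered 4, 14 members (21.5%) passed, where 13.5% of all genes did. The 7 genes above passed in each of these 3 fits. The deprived and control arrays did not overlap for 10 members (15.4%), where the groups did not overlap for 10.5% of all genes. These were the same 7 with Has3, which was higher, and Slc35a4 and Slc35b1, which were lower. The median difference over all members was -0.03 at 5 h, beside -0.01 over all genes tested.

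**Figure D1:**
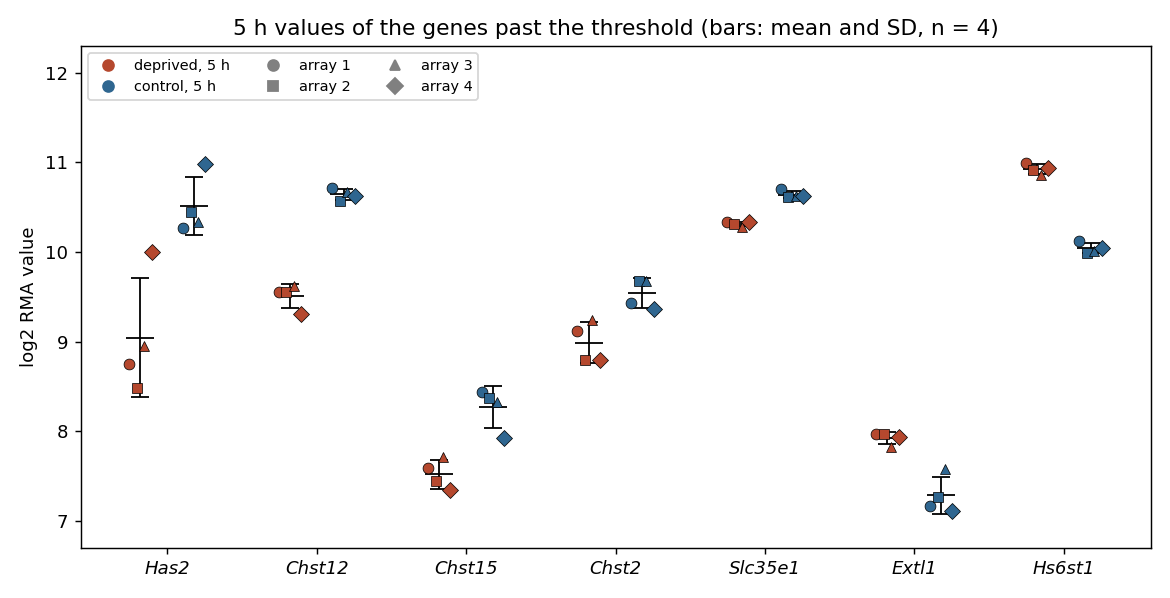
Levels of the 7 genes that passed the test at 5 h, on the log2 RMA scale, as points for the 4 deprived arrays (left of each pair) and the 4 control arrays, with marker shapes for the array number and bars for the mean and SD. The 2 groups do not overlap for any of the 7 genes. Among the deprived arrays of Has2, array 4, at 10, is the nearest to the Has2 controls.

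Has2 makes hyaluronan at the plasma membrane. It had 8.75, 8.48, 8.95 and 10 in deprived cells at 5 h, against 10.27, 10.45, 10.34 and 10.98 in control cells. Array 4 was the highest of its group in both, and each deprived array was below each control array. The means were 9.05 ± 0.67 and 10.51 ± 0.32 (SD, n = 4 each), a difference of -1.46 (SE 0.30, limma adjusted p = 0.0244), or 2.75-fold lower. No other gene tested had a larger decrease at 5 h. With the sample number as a block the adjusted p was 1.65e-05, and without both arrays numbered 4 the difference was -1.62. Leaving out any 1 array numbered 1 to 3 ended the call, with an adjusted p of up to 0.0907.

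The other hyaluronan synthases gave no call in that test. Has1 differed by -0.04 at 5 h (adjusted p = 1.00 when rounded), and its groups overlapped. Has3 had 6.14, 6.17, 6.07 and 6.21 in deprived cells, against 5.80, 6.0, 6.02 and 5.83 in control cells. Its lowest deprived array was just above its highest control array. The difference was 0.23 (adjusted p = 0.187). The block fit called it (adjusted p = 0.0409), and the fit without both arrays numbered 4 did not (0.164). Both Has1 and Has3 were below the median gene level on average.

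Xylt1 and Xylt2 attach the xylose that starts heparan and chondroitin chains on a core protein. Xylt2 had 8.37, 8.25, 8.31 and 8.93 in deprived cells at 5 h, against 8.67, 8.62, 8.66 and 9.36 in control cells. Within each sample number it was lower in the deprived array, by 0.30 to 0.43, while array 4 was the highest of both groups. The difference was -0.36 (limma adjusted p = 0.524, with 0.00148 under the block and 0.00543 without both arrays numbered 4). Xylt1 differed by -0.28 (adjusted p = 0.307, with 0.0197 under the block and 0.0594 without both arrays numbered 4), with 8.77, 8.94, 8.75 and 9.07 in deprived cells against 9.12, 8.97, 9.12 and 9.44 in control cells.

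Ext1 and Ext2 together form the polymerase that lengthens heparan chains. Ext1 had 11.39, 11.34, 11.47 and 12.01 in deprived cells and 11.19, 11.37, 11.35 and 11.97 in control cells at 5 h. These groups overlapped, with a difference of 0.08, and Ext2 differed by -0.12; neither passed with or without the block. Extl1 belongs to the same exostosin family of sugar transferases. It had 7.97, 7.97, 7.82 and 7.93 in deprived cells at 5 h, against 7.17, 7.27, 7.58 and 7.11 in control cells. Every deprived array was above every control array, and control array 3 came nearest. The means were 7.92 ± 0.07 and 7.28 ± 0.21 (SD, n = 4 each), a difference of 0.64 (SE 0.11, adjusted p = 0.0107), or 1.56-fold higher. Extl2 differed by -0.26 and passed only with the block among the 3 fits named above (adjusted p = 0.0292, against 0.0714 without both arrays numbered 4), and Extl3 differed by -0.19 without passing in any of them.

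Among the heparan sulfotransferases, 1 of 14 passed at 5 h. Hs6st1 places sulfate on the 6-O position of glucosamine in heparan chains. It had 10.99, 10.91, 10.86 and 10.94 in deprived cells at 5 h, against 10.12, 9.99, 10.01 and 10.05 in control cells. The 4 deprived arrays lay close together and far above the controls. The means were 10.93 ± 0.06 and 10.04 ± 0.06 (SD, n = 4 each), a difference of 0.88 (SE 0.07, adjusted p = 0.000178), or 1.85-fold higher. Within the sample numbers the difference was 0.85 to 0.92. Hs6st2 and Hs6st3, which catalyse the same reaction, differed by -0.04 and 0.02. Their mean levels over all arrays, 4.75 and 6.64, were both below the median gene (7.47). Hs2st1, the 2-O-sulfotransferase, had 9.80, 9.88, 9.89 and 10.14 in deprived cells and 9.87, 9.76, 9.69 and 10.18 in control cells, overlapping groups with a difference of 0.05. The remaining members of the class, the Hs3st and Ndst genes, differed by -0.20 to 0.13, and 0 of them passed; of the 3 fits named above, Hs3st1 (-0.20) was called only in that without both arrays numbered 4 (adjusted p = 0.0326).

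The Chst family held 3 of the 7 genes that passed, and all 3 were lower. Chst12 adds 4-O sulfate to chondroitin. It had 9.55, 9.55, 9.62 and 9.31 in deprived cells at 5 h, against 10.71, 10.57, 10.67 and 10.62 in control cells. The groups were separated by about a whole log2 unit. The means were 9.51 ± 0.14 and 10.64 ± 0.06 (SD, n = 4 each), a difference of -1.14 (SE 0.09, adjusted p = 0.000159), or 2.20-fold lower.

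Chst15 adds the 6-O sulfate that yields the disulfated E unit of chondroitin. It had 7.59, 7.44, 7.71 and 7.34 in deprived cells at 5 h, against 8.44, 8.37, 8.33 and 7.92 in control cells. Array 4 was the lowest of both groups, and the groups did not overlap. The difference was -0.74 (SE 0.13, adjusted p = 0.0117), or 1.67-fold lower. Chst2 places 6-O sulfate on N-acetylglucosamine of glycoproteins and keratan sulfate. It had 9.12, 8.79, 9.24 and 8.80 in deprived cells, against 9.43, 9.68, 9.68 and 9.36 in control cells, separated by a narrow gap. Its difference was -0.55 (SE 0.13, adjusted p = 0.0443). The call was lost under quantile normalization (adjusted p = 0.108) and with limma's trended and robust prior (adjusted p = 0.0506). It was also lost when any 1 array other than control array 4 or deprived array 3 was left out (adjusted p up to 0.147).

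Chst11, the other widely studied chondroitin 4-O-sulfotransferase among these genes, had 9.05, 9.01, 9.08 and 9.93 in deprived cells at 5 h, against 9.61, 9.5, 9.56 and 10.38 in control cells. Array 4 was far above the rest in both groups, and within each sample number the deprived array was lower, by 0.45 to 0.55. The difference was -0.49 (SE 0.25), with an adjusted p of 0.460 in the unpaired fit, 0.000202 under the block and 0.00048 once both arrays numbered 4 were left out. Chst1, a keratan sulfate sulfotransferase, differed by -0.21 (adjusted p = 0.808, with 0.0318 under the block and 0.0854 without both arrays numbered 4). Chst14, the dermatan 4-O-sulfotransferase, and Chst3, a chondroitin 6-O-sulfotransferase, differed by -0.18 and -0.07, with no call in the unpaired or the block fit.

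Of the 27 Slc35 carriers, 1 passed at 5 h. Slc35e1 had 10.33, 10.31, 10.28 and 10.33 in deprived cells, against 10.70, 10.61, 10.63 and 10.62 in control cells. The spread within each group was small beside the gap between them. The difference was -0.33 (SE 0.07, adjusted p = 0.0218), or 1.26-fold lower, and it was lost when any 1 array numbered 1 to 3 was left out (adjusted p up to 0.0905). The median over the 27 carriers was 0.02 at 5 h, with a range of -0.36 to 0.32.

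Slc35b1, which exchanges ATP and ADP across the endoplasmic reticulum membrane, had 10.54, 10.47, 10.57 and 10.85 in deprived cells at 5 h, against 10.87, 10.94, 10.89 and 11.12 in control cells. The highest deprived array was just below the lowest control array. The difference was -0.35 (adjusted p = 0.106, with 0.00239 under the block and 0.00311 without both arrays numbered 4). Slc35a4 had 11.34, 11.34, 11.32 and 11.20 in deprived cells and 11.47, 11.53, 11.66 and 11.51 in control cells, groups that did not overlap, with a difference of -0.24 (adjusted p = 0.139, with 0.0206 under the block and 0.0692 without both arrays numbered 4). Its other row on the array differed by -0.28.

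Slc35d2, a carrier of UDP-N-acetylglucosamine, differed by -0.36 (adjusted p = 0.686, with 0.0193 under the block and 0.131 without both arrays numbered 4). Slc35f5 differed by 0.32 (adjusted p = 0.674, with 0.00981 under the block and 0.00198 without both arrays numbered 4). Slc35a5 differed by 0.22, called without both arrays numbered 4 (adjusted p = 0.0219) but not in the unpaired or the block fit. Slc35a1, the CMP-sialic acid carrier, and Slc35e2 also passed with the block, both lower; without both arrays numbered 4 their adjusted p was 0.121 and 0.0131. Slc35b4, a carrier of UDP-xylose and UDP-N-acetylglucosamine, had 10.65, 10.56, 10.62 and 10.56 in deprived cells and 10.66, 10.60, 10.63 and 10.54 in control cells, with a difference of -0.01. Slc35f6 differed by 0.08. The UDP-galactose carrier Slc35a2 (-0.10), the PAPS carriers Slc35b2 (-0.18) and Slc35b3 (0.07), the GDP-fucose carrier Slc35c1 (0.11) and the UDP-glucuronic acid carrier Slc35d1 (-0.05) were not called in the unpaired or the block fit.

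The start regions of the 4 genes that passed in each of the 16 ways the 5 h test was run are shown so that their sequences can be set beside those values. Each is a RefSeq window on GRCm38.p6, with the bases before the annotated start in lower case and the 50 from the start on in capitals. Chst12 lies at chr5:140505359-140505658 on the plus strand, Hs6st1 at chr1:36068150-36068449 on the plus strand, Chst15 (the first of 2 windows) at chr7:132317179-132317478 on the minus strand, and Extl1 at chr4:134372498-134372797 on the minus strand. No sequence is shown for Has2.
Chst12: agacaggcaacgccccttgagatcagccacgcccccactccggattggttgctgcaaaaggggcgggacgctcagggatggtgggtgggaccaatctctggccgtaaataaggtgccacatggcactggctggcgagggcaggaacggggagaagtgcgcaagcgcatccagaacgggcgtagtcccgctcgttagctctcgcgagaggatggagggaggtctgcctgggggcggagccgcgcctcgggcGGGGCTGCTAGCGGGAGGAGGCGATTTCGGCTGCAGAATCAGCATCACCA
Hs6st1: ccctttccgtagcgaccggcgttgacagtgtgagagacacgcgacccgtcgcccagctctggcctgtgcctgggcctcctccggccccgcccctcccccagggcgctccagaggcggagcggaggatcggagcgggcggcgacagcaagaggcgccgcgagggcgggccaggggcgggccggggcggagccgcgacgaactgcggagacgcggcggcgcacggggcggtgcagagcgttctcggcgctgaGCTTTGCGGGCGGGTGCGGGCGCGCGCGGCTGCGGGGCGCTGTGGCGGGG
Chst15: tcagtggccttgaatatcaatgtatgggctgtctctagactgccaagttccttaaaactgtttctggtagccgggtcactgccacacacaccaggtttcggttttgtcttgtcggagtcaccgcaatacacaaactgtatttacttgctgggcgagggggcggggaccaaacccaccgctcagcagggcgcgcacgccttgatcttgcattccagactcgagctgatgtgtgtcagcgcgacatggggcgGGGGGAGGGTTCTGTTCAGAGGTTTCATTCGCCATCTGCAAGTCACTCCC
Extl1: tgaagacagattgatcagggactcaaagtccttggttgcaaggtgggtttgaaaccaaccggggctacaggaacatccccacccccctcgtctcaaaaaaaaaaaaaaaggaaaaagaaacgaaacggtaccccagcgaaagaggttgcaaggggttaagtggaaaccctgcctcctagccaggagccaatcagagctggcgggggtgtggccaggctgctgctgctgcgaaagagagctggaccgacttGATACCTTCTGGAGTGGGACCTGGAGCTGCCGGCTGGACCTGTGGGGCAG

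These windows hold 65%, 78.0%, 55.0% and 55.3% G and C in that order, with 24, 47, 15 and 9 CpG pairs, beside medians of 52.7% and 7 over all 32851 windows. Windows were found for 54 of the 65 members, 63 windows in all. The letters TGATGNAA, the core of the C/EBP-ATF composite element, were searched on both strands and were in 0 of the 63, and in 3.97% of all windows. TGACGTGN, the core of the endoplasmic reticulum and Golgi stress type elements, was in 0 of the 63 and in 2.01% of all windows. The E-box CACGTG was in 6 of the 63 (9.52%) and in 7.15% of all windows; those 6 belong to Chst14, Ext2, Extl2, Hs3st3a1, Slc35a5 and Slc35e3. None of these letters is in the windows of the 6 members that passed at 5 h in the unpaired fit and have a window. No window was found for Has2, so it was not searched.

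At the other times each group is 1 array, so differences have no replicate check and are given without a test. At 1 h no member differed by 1 or more, where 0.125% of all genes did. Has2 was the 1 member past that size at 2 h (0.181% of all genes) and at 3 h (0.135% of all genes). At 16 h 5 members (7.69%) differed by -1 or less, where 2.97% of all genes did, and 0 members by 1 or more; in either direction 4.93% of all genes were past that size. The member median at 1, 2, 3 and 16 h was 0.03, -0.07, -0.08 and -0.15, beside 0.01, -0.01, 0.02 and -0.04 over all genes. At 16 h 48 of 65 members (73.8%) were below 0, where 56.2% of all genes were. By role the 16 h medians were -0.23 for the hyaluronan synthases, -0.57 for the xylosyltransferases and -0.20 for the exostosin-family enzymes. They were -0.25 for the heparan sulfotransferases, -0.24 for the Chst enzymes and -0.03 for the carriers.

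**Figure D2:**
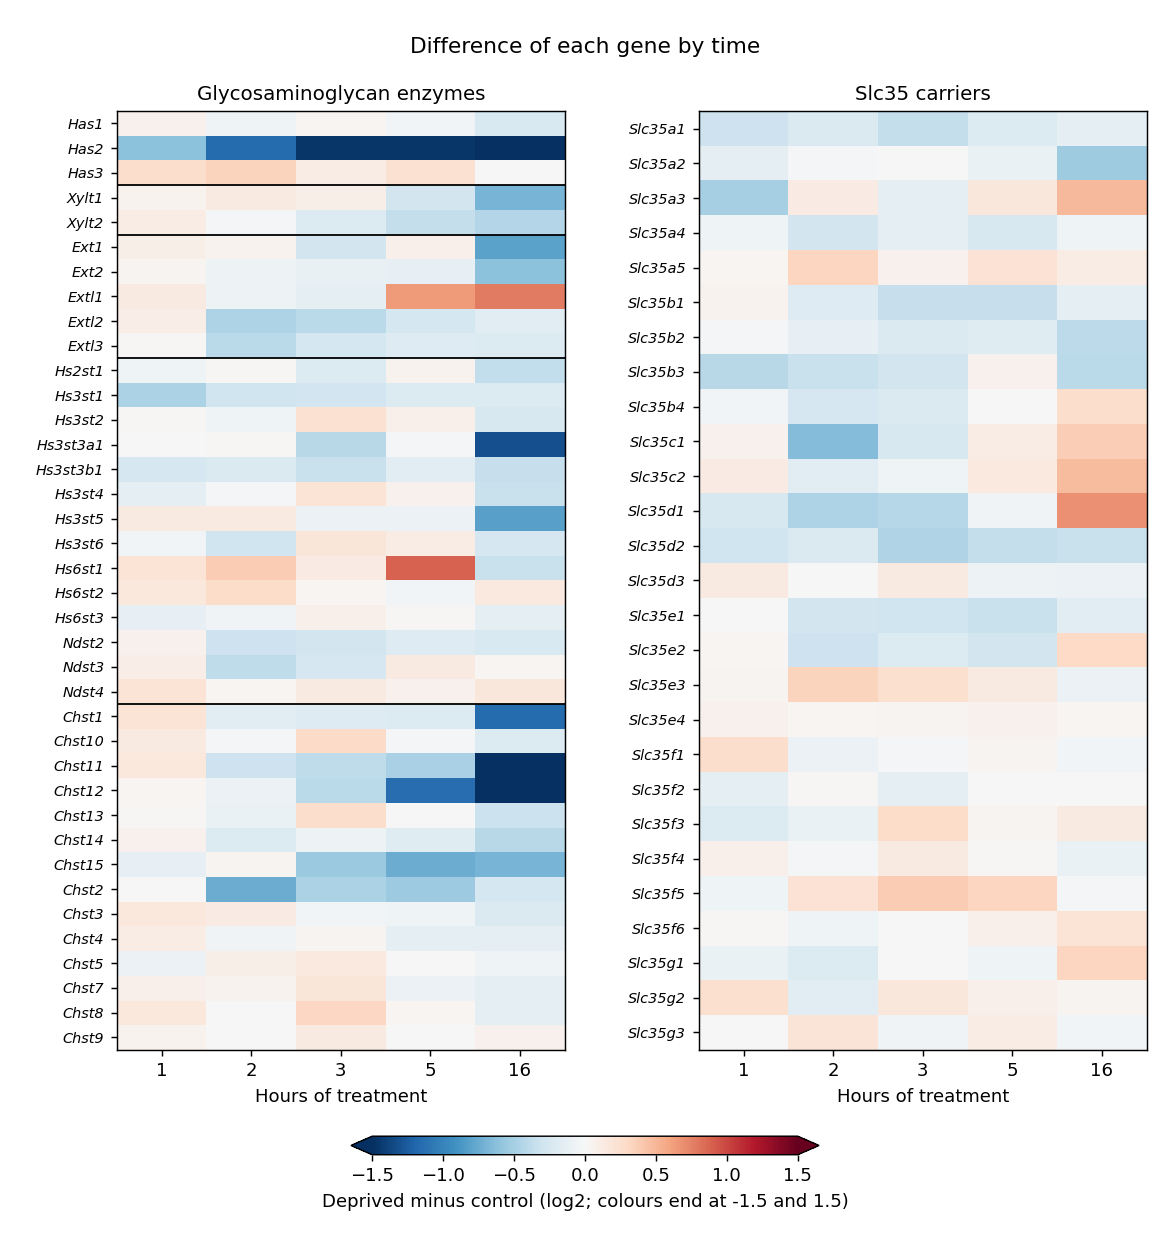
Deprived minus control difference of each of the 65 genes (log2, colour; red higher and blue lower in deprived cells) at each hour of treatment, with enzymes on the left divided by role and carriers on the right. The darkest blue cells are Has2 at 3, 5 and 16 h and Chst12, Chst11 and Hs3st3a1 at 16 h, while the carriers stay between -0.53 and 0.69 at 16 h.

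Has2 was lower in the deprived array at each single time. It had 10.52 in deprived cells against 11.14 in control cells at 1 h, 9.23 against 10.39 at 2 h, 8.60 against 10.06 at 3 h and 7.84 against 10.05 at 16 h. The differences were -0.62, -1.16, -1.46 and -2.21, the last a 4.63-fold lower level. In a limma fit over these 8 arrays with time as a factor, which shares no array with the 5 h test, the mean difference was -1.36 (SE 0.24, adjusted p = 0.492). That fit called 0 members and 0 genes of all (0%). In it 8 of 65 members and 1244 of 19938 genes had an unadjusted p below 0.05. Without the 16 h pair the fit called 0.176% of all genes and 1 member, Has2, at -1.08 (SE 0.13, adjusted p = 0.0366). Leaving out the 1, 2 or 3 h pair instead called 0 members.

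Chst12 had nearly equal levels early, with 10.41 in deprived cells against 10.37 in control cells at 1 h and 10.31 against 10.39 at 2 h. It had 10.25 against 10.66 at 3 h and 8.24 against 10.56 at 16 h. The 16 h difference was -2.32, a 4.98-fold lower level. Chst11 had 10.10 in deprived cells against 9.94 in control cells at 1 h and 8.15 against 9.89 at 16 h, a difference of -1.74, after -0.31 at 2 h and -0.38 at 3 h. Hs3st3a1, a heparan 3-O-sulfotransferase, had 6.11 in the deprived array against 7.43 in the control array at 16 h (-1.32), where its difference at 5 h was -0.03. Chst1 had 7.46 against 8.62 at 16 h (-1.16).

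None of the other genes that passed at 5 h differed by 1 or more at a single time. Chst15 differed by -0.12, 0.04, -0.56 and -0.70 at 1, 2, 3 and 16 h. Chst2 differed by 0.01, -0.74, -0.47 and -0.26 at those times. Slc35e1 had 10.80 in both groups at 1 h and differed by -0.27, -0.30 and -0.16 at 2, 3 and 16 h. Hs6st1 was higher in the deprived array by 0.20, 0.38 and 0.12 at 1, 2 and 3 h, and at 16 h it had 10.37 in deprived cells against 10.70 in control cells (-0.33). Extl1 differed by 0.13, -0.08 and -0.15 at 1, 2 and 3 h, and had 8.29 in deprived cells against 7.51 in control cells at 16 h (0.78). At 16 h Ext1 differed by -0.80, Ext2 by -0.62, Xylt1 by -0.70 and Xylt2 by -0.44. The UDP-glucuronic acid carrier Slc35d1 differed by 0.69 there.

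**Figure D3:**
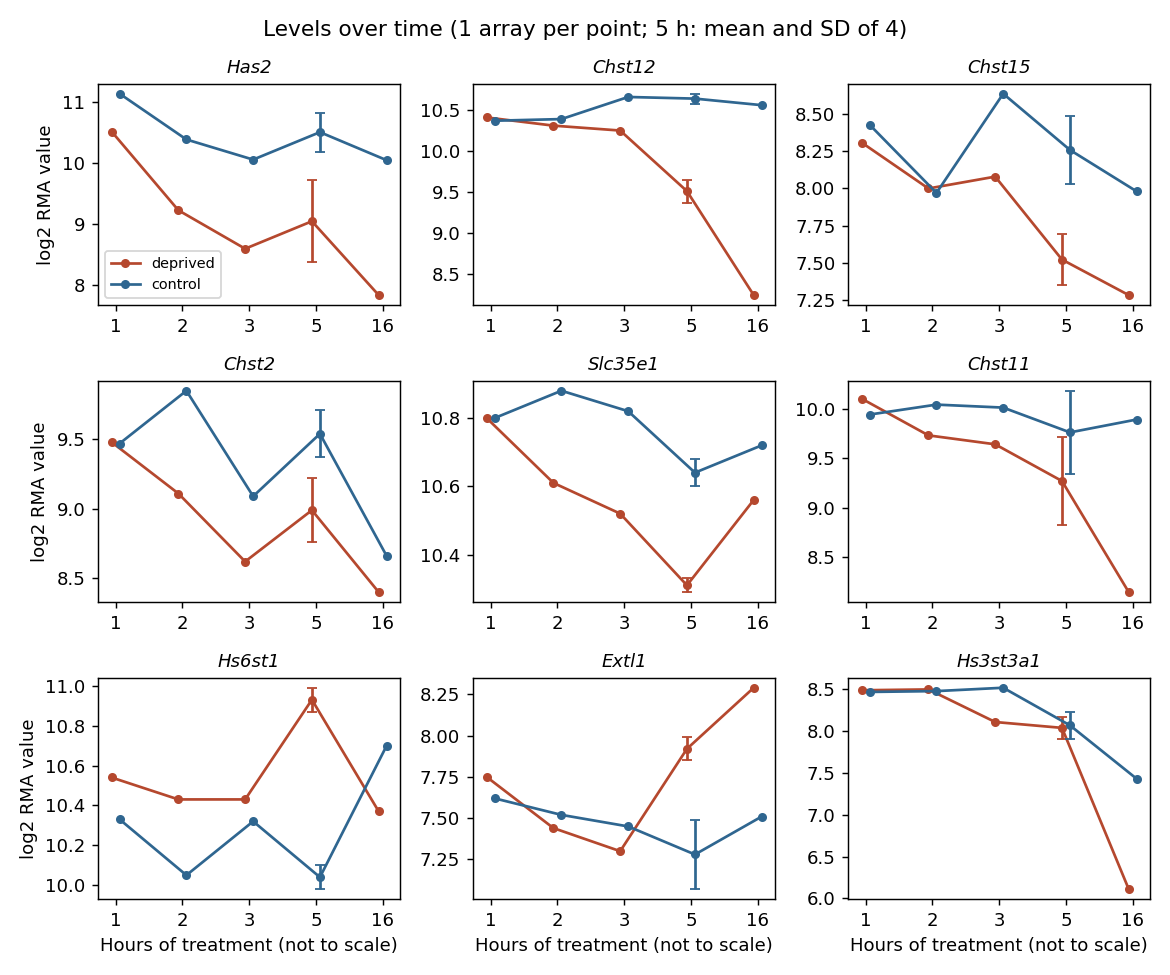
Levels (log2 RMA) of 9 genes in deprived and control cells by hours of treatment, which are not spaced to scale; points are single arrays except at 5 h, where they are means of 4 arrays with SD bars. Has2 is lower in deprived cells at all 5 times, Chst12 and Chst11 are apart by 2.32 and 1.74 at 16 h, and the 2 lines of Hs6st1 cross between 5 and 16 h.

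Marker genes of several cell types also differed at 16 h. There the mean of the mesenchymal list was 8.49 in the deprived array against 9.25 in the control array, that of the neural list 7.83 against 8.28, and that of the astrocyte list 6.88 against 7.56. At 5 h the mesenchymal mean was 9.09 to 9.17 in deprived cells and 9.15 to 9.43 in control cells, and the neural mean 8.08 to 8.14 and 8.17 to 8.22. The hypothalamic, oligodendrocyte, microglial and endothelial means differed by less at 16 h, with 7.37 against 7.45, 6.71 against 6.84, 5.99 against 6.02 and 6.10 against 6.17. The markers that differed by 1 or more at 16 h were the glutamate transporter gene Slc1a3 (-2.49), the collagen gene Col1a1 (-2.13), Stmn2 (-1.44) and Sox2 (-1.27). Slc1a3 was the 1 astrocyte marker of that size, the other 4 lying between -0.41 and 0.15, and Col1a1 the 1 mesenchymal marker, the other 4 lying between -0.70 and -0.02. Nes was the 1 marker that passed at 5 h (-0.69, SE 0.12, adjusted p = 0.00923). Their part in the results on Has2, Chst12 and the other members was not tested.

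Of 75 measured genes of the wider pathway, 1 rose and 3 fell at 5 h in the unpaired fit, and 7 rose and 30 fell with the block. That is 5.33% of the list in the unpaired fit, where 4.11% of all genes passed, and 49.3% with the block, where 18.2% did. Without both arrays numbered 4, 34.7% of the list passed, where 13.5% of all genes did. The gene that rose was Glce, the epimerase that turns glucuronic into iduronic acid in heparan chains, the step before 2-O sulfation. It had 11.40, 11.43, 11.37 and 11.34 in deprived cells at 5 h, against 10.33, 10.26, 10.06 and 9.78 in control cells. All deprived arrays were about a log2 unit or more above all controls, with a difference of 1.28 (SE 0.12, adjusted p = 0.000384). At 1, 2, 3 and 16 h it differed by -0.05, 0.45, 0.39 and 1.40. The chondroitin polymerizing factors Chpf (-0.40, SE 0.07, adjusted p = 0.0108) and Chpf2 (-0.48, SE 0.09, adjusted p = 0.0136) fell, 2 of 9 chondroitin and dermatan chain enzymes. Gne, which makes the precursor of sialic acid, fell by 0.43 (SE 0.09, adjusted p = 0.0327), 1 of 16 donor synthesis genes; that call held in 8 of the 16 ways the test was run.

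None of 5 linker enzymes, 7 hyaluronan receptor and breakdown genes, 24 proteoglycan core proteins and 10 lysosomal enzymes passed at 5 h, while the block fit called 2, 4, 8 and 5 of them in that order (40%, 57.1%, 33.3% and 50%, where it called 18.2% of all genes). Without both arrays numbered 4 the shares were 40%, 42.9%, 20.8% and 20% in that order, where 13.5% of all genes passed. At 16 h, with 1 array per group, 10 of 24 core proteins (41.7%) differed by -1 or less, where 2.97% of all genes did, and 0 by 1 or more. Decorin (Dcn, -2.33), biglycan (Bgn, -1.86), syndecan-3 (Sdc3, -1.80) and versican (Vcan, -1.51) were among them. Of the chondroitin chain enzymes 3 of 9 (33.3%) were past -1 there, the epimerase Dse (-1.5), the sulfotransferase Ust (-1.27) and the chain starter Csgalnact1 (-1.26). The heparan endosulfatase Sulf2 differed by -2.24. Gnpnat1, an enzyme of UDP-N-acetylglucosamine synthesis named after its values were seen, had 12.12 in the deprived array against 9.67 in the control array (2.45). The other listed enzymes of that synthesis were not higher there: Gfpt1 (-0.53), Gfpt2 (-0.04), Pgm3 (-0.21) and Uap1 (-0.83). Of the 16 donor synthesis genes 14 (87.5%) were below 0 at 16 h, where 56.2% of all genes were. The median over the 75 genes was -0.14 at 5 h and -0.47 at 16 h.

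**Figure D4:**
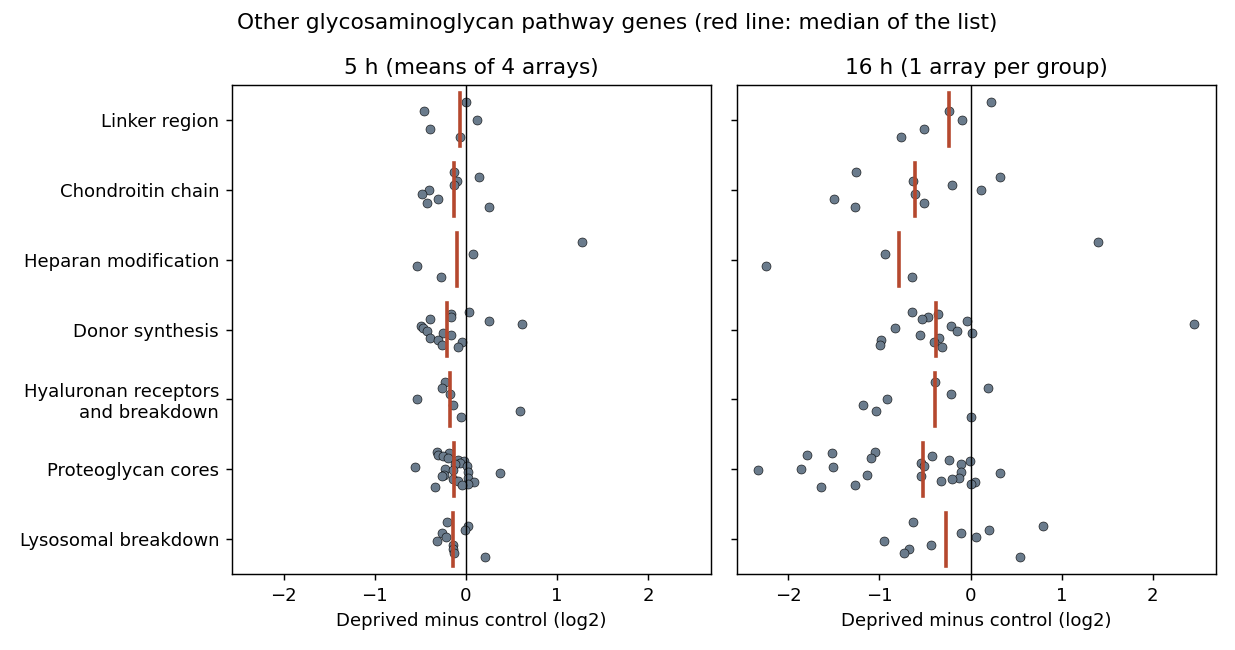
Deprived minus control differences (log2) of the 75 other pathway genes at 5 h (means of 4 arrays per group) and 16 h (1 array per group), 1 point per gene, with a red line at the median of each list. Glce stands alone at 1.28 at 5 h, and the list medians at 16 h run from -0.79 for heparan modification to -0.24 for the linker region.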

How the data were processed

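Biotinylated cDNA from N25/2 cells was read on whole-transcript arrays. The authors deposited log2 values summarised by RMA, per the submitters' processing notes, which also name limma; versions and settings are not given in the sources used here. Of 35556 array rows, the 21789 with 1 gene symbol in the platform annotation were used, and 1621 with several symbols and 12146 with none were left out. Where a gene had more than 1 row (999 genes), the row of highest mean level stood for it, which gave 19938 genes.

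The 5 h groups (4 arrays each) were tested with limma (version 3.58.1, R 4.3.3, lmFit, eBayes, two-sided, Benjamini-Hochberg over all genes, threshold 0.05). The fit was also run on simulated data with independent noise in each array. That run does not cover the deviation shared by the arrays numbered 4. Arrays of 1, 2, 3 and 16 h were fitted with time as a factor, and single times were described by differences, counted from 1 log2 unit. Sample numbers come from the labels, which do not explain them. Deviations of same-numbered 5 h arrays from their group means correlated at 0.354, 0.584, 0.467 and 0.896. Differently numbered arrays among numbers 1 to 3 correlated at 0.133 to 0.68, so these values do not single out pairs among them. The numbers were taken as pairs and used as a block in a further fit. Number 4 against the others gave -0.338 to -0.745, so the pairing mainly separates number 4.

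The members and lists were chosen with earlier results of these data known. Genes named were members that passed at 5 h or in the fit over times, those past 1 at a single time, those called with the block, the 5 with the highest mean level and a fixed set (Has1 to Has3, Ext1, Ext2, Xylt1, Xylt2, Chst11, Chst12, Chst15, Hs2st1, Ndst1), plus pathway genes that passed; others are named for their role or, at 16 h, for their size, after their values were seen. Alternatives were the block, quantile normalization, the mean of a gene's rows, genes above the median level, a trended robust prior, and leaving out arrays or times. Promoter windows (250 bases before to 50 after the start) are RefSeq's on GRCm38.p6.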

Additional observations from a re-analysis of the deposited data

Results flagged for a closer look

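At 5 h, 52 groups of 4 arrays were tested for 1 array far from the other 3. In 9 of them there was one, and it was array 4 in all 9. The groups are those of the 26 named members in deprived and in control cells. Some members were named through the block fit, and all share the same arrays, so no chance rate applies to this count. In deprived cells array 4 was at 7.99 for Chst1 (the others 8.47 to 8.56), 9.93 for Chst11 (9.01 to 9.08), 7.85 for Hs3st3a1 (8.09 to 8.12), 11.20 for Slc35a4 (11.32 to 11.34), 7.53 for Slc35d2 (6.83 to 6.93) and 10.50 for Slc35f5 (9.94 to 10.03). In control cells it was at 10.38 for Chst11 (9.5 to 9.61), 10.42 for Slc35f5 (9.56 to 9.59) and 9.36 for Xylt2 (8.62 to 8.67).

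Some genes that passed at 5 h had the opposite sign at a time with 1 array per group, where the difference between times was not tested. These were Chst12 at 1 h (0.03, against -1.14 at 5 h), Chst15 at 2 h (0.04, against -0.74), Chst2 at 1 h (0.01, against -0.55), Extl1 at 2 h (-0.08) and 3 h (-0.15, against 0.64 at 5 h), and Hs6st1 at 16 h (-0.33, against 0.88 at 5 h).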

How the results depend on the processing

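The count of members called at 5 h was 7 in the unpaired limma fit, 19 with the replicate block, 14 without both arrays numbered 4, and 13 with the block and without those arrays, the last chosen after seeing the data; of all genes, those fits called 820, 3632, 2695 and 2316. Leaving out 1 array at a time gave 4 to 7 members and 382 to 1066 of all genes, with fewer arrays in each fit, and the 4 genes called in all 16 settings were Chst12, Chst15, Hs6st1 and Extl1 (adjusted p up to 0.0487). Has2 and Slc35e1 held in 10 of 16 and Chst2 in 8 of 16, up to an adjusted p of 0.147. The mean over 1, 2, 3 and 16 h gave 0 members in each setting but that without the 16 h pair, which gave 1. Counts past 1 log2 unit kept their values, and member medians at each time their sign, under quantile normalization and the mean of a gene's rows.

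Of 387 alternatives over the 26 named members, 332 kept direction and call, 20 lost the call, 24 gained it and 11 turned in sign, all of the last in genes not called. With 1 array left out at a time the range was -0.07 to 0.25 for Ext1, -0.09 to 0.02 for Has1, -0.02 to 0.16 for Hs2st1, -0.0039 to 0.13 for Slc35f6 and -0.10 to 0.04 for Hs3st3a1. Ext1 also gave -0.01 without control array 1, Hs2st1 -0.01 without control array 3, and Hs3st3a1 0.03 without control array 4 or with quantile normalization and 0.10 without both arrays numbered 4, with or without the block. The cause was not tested. The replicate block changed no member's call beyond those given. With 1 array per group, nothing at a single time can be set against replicate error.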
